A study of Mus musculus with 16 samples.

Results

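The subject is the set of nuclear genes for the mitochondrial respiratory chain and ATP synthase in RAW264.7, a macrophage line of the mouse that can form osteoclasts. Members are the genes of the deposited table whose names start with Nduf, Sdha, Sdhb, Sdhc, Sdhd, Uqcr, Cox4, Cox5, Cox6, Cox7, Cox8 or Atp5 and that reached 1 RPKM (a read count scaled to transcript length and library depth) in at least 2 of the 16 libraries. Of 20490 genes in the table, 93 names matched and 89 genes passed that level. The 4 below it were Cox4i2, Cox6b2, Ndufa4l2 and Sdhaf3. Complex I gave 43 members, complex II 7, complex III 8, complex IV 14 and complex V 17. Of the 89, 76 encode structural subunits. The other 13 are assembly factors or related proteins, among them 7 Ndufaf genes, 3 Sdhaf genes, the supercomplex factor Cox7a2l, and Atp5s and Atp5sl, which match by name only. Ndufa4 is named for complex I but encodes a complex IV subunit and was placed there.

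The respiratory chain passes electrons from NADH (complex I) and succinate (complex II) through complex III to complex IV, which reduces oxygen. Complexes I, III and IV pump protons across the inner mitochondrial membrane, and complex V, the ATP synthase, uses the returning protons to make ATP. Complexes I, III, IV and V mix nuclear-encoded subunits with subunits encoded by mitochondrial DNA, while complex II, succinate dehydrogenase, is all nuclear and is also an enzyme of the tricarboxylic acid (TCA) cycle. Osteoclasts, the bone-resorbing cells that macrophage precursors form by fusion under the cytokine RANKL, are known for their many mitochondria.

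After 12 h of attachment, RAW264.7 cells received PBS (phosphate-buffered saline, the control), 10 ng/mL recombinant mouse RANKL, 30 µg/mL extracellular vesicles (EV) of PC3M, a metastatic human prostate cancer line, or RANKL and EV together. Each of the 4 treatments was sampled at 48 h and at 72 h with 2 libraries, which gives 8 groups, and all groups share the cell line and its serum-containing MEM medium. The stated aim was to follow how the vesicles act on osteoclast differentiation. Whether the 2 libraries of a group are separate cultures is not labelled; p-values therefore reflect the spread between libraries, and that spread may be technical. Fewer cells of a type and less RNA per cell cannot be told apart in such bulk samples.

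Depth, estimated from single-exon genes, was even: 1 read in a transcript of 1 kb was worth 0.04998 to 0.0544 RPKM in every library. All 8 macrophage markers and all 7 osteoclast markers passed the level filter. The summed osteoclast markers ran from 17.5 to 19.3 RPKM in the PBS libraries, from 83.6 to 126 RPKM with EV, from 280 to 827 RPKM with RANKL and from 489 to 1585 RPKM with both. The summed macrophage markers ran from 6119 to 8239 RPKM with PBS, from 6097 to 7468 RPKM with EV, from 2577 to 3320 RPKM with RANKL and from 2105 to 2808 RPKM with both. Both sums thus moved with RANKL, and their part in the results below was not tested. Lyz2 alone reached 6084 RPKM of the macrophage sum. By single gene, 6 of the 8 macrophage markers were lower and 2 higher with RANKL than with PBS at 48 h. At 72 h 4 were lower and 4 higher, so the macrophage list did not move as a whole at that time. No epithelial marker and no stromal marker passed the filter; the highest single values were 0.252 RPKM (Met) and 0.867 RPKM (Runx2). Ribosomal protein genes took 10.1% to 10.6% of all RPKM in 5 libraries at 72 h (both EV, both EV+RANKL and RANKL replicate 2) and 7.49% to 8.92% in the other 11. The RANKL 72 h libraries stood apart from each other: 75 of 89 members were higher in replicate 2, with a median difference of 0.35 on the log2 scale against 0.06 over all tested genes. In EV 72 h, 80 of 89 members were higher in replicate 2, with a median difference of 0.25 against 0.08 over all tested genes. In EV+RANKL 72 h it was 72 of 89, with a median difference of 0.09 against 0.06. In PBS 72 h it was 32 of 89, with a median difference of -0.04. In the 4 groups at 48 h the median difference between replicates lay between -0.05 and 0.04. Counts of members called at 72 h, and the medians and list counts for RANKL and EV against PBS at 72 h, are therefore given with and without single libraries.

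Levels differed far more between members than between libraries. On the RPKM scale, which is per length, 72 members averaged 10 RPKM or more over the 16 libraries and 13 averaged 100 RPKM or more. The highest and lowest means were 104 RPKM (Ndufa1, of the membrane arm) and 2.49 RPKM (Ndufb2) in complex I, 93.1 RPKM (Sdhd, a membrane anchor) and 3.33 RPKM (Sdhaf4, an assembly factor) in complex II, and 212 RPKM (Uqcrh, the hinge protein) and 20.7 RPKM (Uqcrq) in complex III. In complex IV they were 324 RPKM (Cox8a) and 1.29 RPKM (Cox6a2, the heart and muscle form of subunit 6a), and in complex V 272 RPKM (Atp5a1, the catalytic-core alpha subunit) and 1.91 RPKM (Atp5s). The ratio of a member's highest to its lowest library had a median of 1.72 and a range of 1.23 to 2.76 in 88 members, and it was under 2 in 68 of them. The exception was Cox6a2, which ran from 0 to 12.1 RPKM.

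Promoter windows were available for 73 of the 89 members, from 250 bases before to 50 bases after each RefSeq start (build GRCm38.p6). NRF1, a transcription factor named for its binding to respiratory chain promoters, has a motif of GCGC, any 2 bases and GCGC, which was searched together with an ETS or GABPA motif (CCGGAAG) and a YY1 motif (ATGGCGG) on both strands. Matches of different motifs may overlap, and a match read on both strands was counted once. The NRF1 letters were found in 22 of 73 members (30.1%), in 16.7% of tested genes and in 6.997% of all 27025 genes with a window of the same length. The shares were 26.0%, 22.8% and 9.93% for the ETS or GABPA motif and 16.4%, 10.6% and 4.69% for the YY1 motif. By complex, the NRF1 letters were in 11 of 38 members of complex I, 3 of 6 of complex II, 1 of 5 of complex III, 1 of 11 of complex IV and 6 of 13 of complex V.

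The 250 bases before the start are shown for 6 members that the results below turn on, read 5′ to 3′ toward the gene with matches to any of the 3 motifs in capitals. Sdha, the flavoprotein of complex II, had the smallest adjusted p of complex II members in the F test over groups; its window is chr13:74350241-74350490 on the minus strand. Atp5g2 and Ndufv3 were higher at 72 h with EV than at 48 h, and their windows are chr15:102671048-102671297 (minus) and chr17:31519865-31520114 (plus). Ndufs5, Ndufs6 and Ndufaf2 were lower in that comparison, with windows at chr4:123718187-123718436, chr13:73328483-73328732 and chr13:108158626-108158875, all on the minus strand.
Sdha: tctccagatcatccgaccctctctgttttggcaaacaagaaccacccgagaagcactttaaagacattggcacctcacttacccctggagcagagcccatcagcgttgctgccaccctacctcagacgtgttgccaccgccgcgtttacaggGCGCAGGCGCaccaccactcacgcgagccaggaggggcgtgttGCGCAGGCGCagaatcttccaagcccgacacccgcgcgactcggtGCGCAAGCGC
Atp5g2: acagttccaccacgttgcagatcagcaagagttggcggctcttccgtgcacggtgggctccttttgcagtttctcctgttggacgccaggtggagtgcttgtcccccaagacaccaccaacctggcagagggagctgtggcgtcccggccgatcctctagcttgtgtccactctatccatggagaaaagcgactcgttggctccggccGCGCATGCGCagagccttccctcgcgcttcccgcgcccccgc
Ndufv3: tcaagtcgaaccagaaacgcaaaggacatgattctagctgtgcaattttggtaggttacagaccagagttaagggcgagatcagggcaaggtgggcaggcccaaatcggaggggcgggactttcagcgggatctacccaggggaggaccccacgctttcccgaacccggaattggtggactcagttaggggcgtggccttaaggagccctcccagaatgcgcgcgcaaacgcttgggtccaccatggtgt
Ndufs5: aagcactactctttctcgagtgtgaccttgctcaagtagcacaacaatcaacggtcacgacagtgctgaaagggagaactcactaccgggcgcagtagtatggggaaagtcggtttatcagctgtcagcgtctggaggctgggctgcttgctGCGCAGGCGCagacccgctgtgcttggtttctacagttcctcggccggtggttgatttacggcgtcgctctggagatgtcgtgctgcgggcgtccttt
Ndufs6: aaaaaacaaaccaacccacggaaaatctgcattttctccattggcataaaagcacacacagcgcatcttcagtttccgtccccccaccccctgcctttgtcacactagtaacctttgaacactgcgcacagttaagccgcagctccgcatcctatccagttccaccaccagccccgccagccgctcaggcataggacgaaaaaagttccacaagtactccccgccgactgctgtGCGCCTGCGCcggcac
Ndufaf2: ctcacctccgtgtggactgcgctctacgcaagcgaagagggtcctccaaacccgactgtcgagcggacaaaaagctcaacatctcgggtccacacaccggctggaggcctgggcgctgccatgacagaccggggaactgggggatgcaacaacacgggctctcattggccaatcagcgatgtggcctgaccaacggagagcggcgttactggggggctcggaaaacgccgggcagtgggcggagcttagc
All capitals in these windows are NRF1 letters. Sdha held 3 matches within 98 bases of the start, Atp5g2, Ndufs5 and Ndufs6 held 1 each, and the windows of Ndufv3 and Ndufaf2 held none of the 3 motifs. A match is a stretch of letters and not a measured binding site.

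The summed RPKM of the structural subunits described each complex in each library, and no test was made on these sums. For all 5 complexes the lowest group mean was PBS 48 h. In complex III, EV 72 h was close to it, and rescaling without mitochondrially encoded genes put EV 72 h lower, at 583 against 590 RPKM. Relative to PBS 48 h, EV+RANKL 72 h stood at 1.75 for complex II, 1.56 for complex IV, 1.43 for complex V, 1.26 for complex III and 1.21 for complex I. Complex II summed to 171 ± 5.66 RPKM in PBS 48 h and to 299 ± 8.63 RPKM in EV+RANKL 72 h (mean ± SD, n = 2 here and below). Between them lay EV 48 h at 190 ± 2.15 RPKM, PBS 72 h at 191 ± 1.88 RPKM, RANKL 48 h at 213 ± 0.0686 RPKM, EV 72 h at 225 ± 34.1 RPKM, EV+RANKL 48 h at 240 ± 10.4 RPKM and RANKL 72 h at 264 ± 56.8 RPKM. In that order EV 48 h and PBS 72 h overlapped, and the libraries of EV 72 h and of RANKL 72 h spread across those of their neighbours. The plot of complex levels shows the same spread for complexes IV and V, where the RANKL 72 h libraries were at 1423 and 1928 RPKM for complex IV and at 1264 and 1679 RPKM for complex V.

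**Figure D1:**
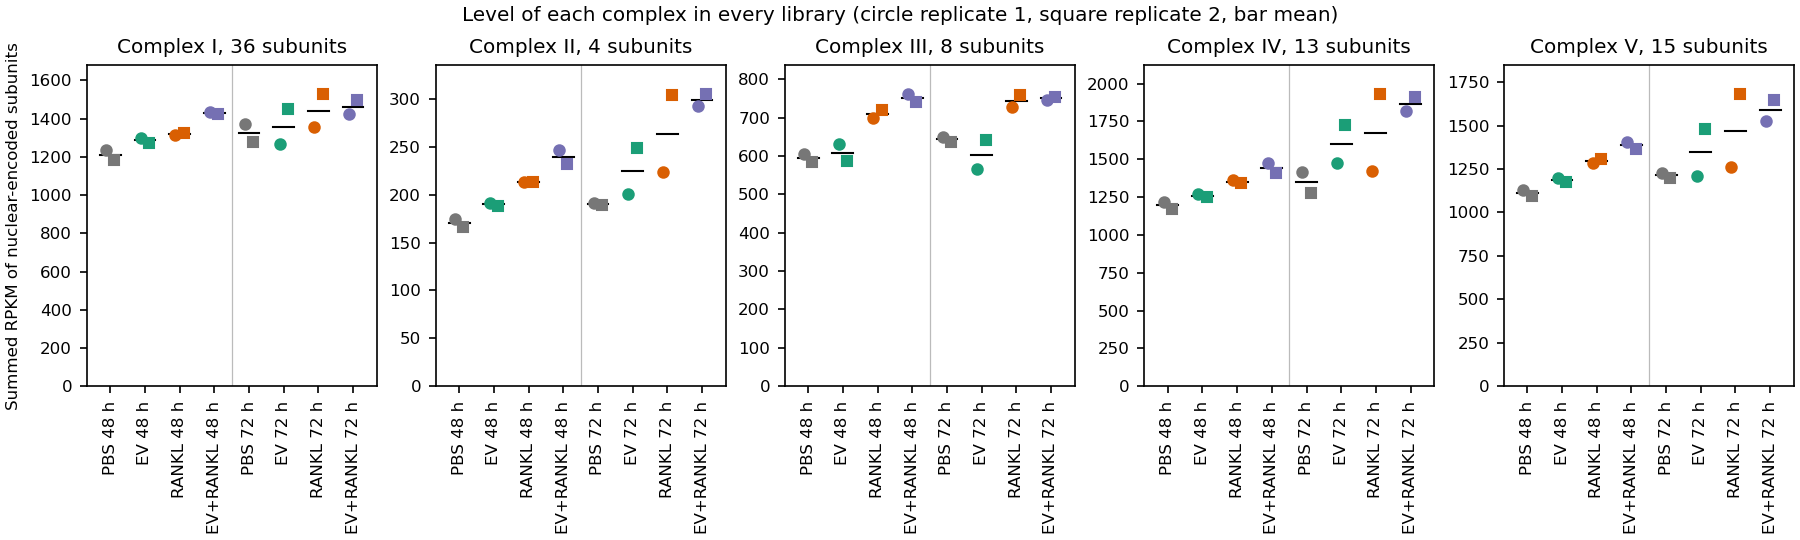
Summed RPKM of the nuclear-encoded subunits of each complex (vertical axis, from 0) in the 16 libraries, by treatment and time; circles are replicate 1, squares replicate 2 and bars the mean of 2. PBS 48 h has the lowest mean in every complex, though EV 72 h is close to it in complex III. At 72 h the RANKL replicates lie far apart in complexes II, IV and V.

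Complex III was ordered differently. It summed to 595 ± 15.6 RPKM in PBS 48 h, 609 ± 29.7 RPKM in EV 48 h, 643 ± 7.51 RPKM in PBS 72 h and 604 ± 54.7 RPKM in EV 72 h. The 4 groups with RANKL lay at 709 ± 15.5 RPKM (RANKL 48 h) to 751 ± 13.6 RPKM (EV+RANKL 48 h). The sums of the 8 libraries with RANKL (698 to 760 RPKM) did not overlap those of the 8 without it (565 to 648 RPKM), a description with no test. Uqcrh and Uqcrb, with means of 212 and 159 RPKM, weighed most in these sums. The median log2(RPKM + 1) over the 8 subunits did overlap, at 6.08 to 6.50 with RANKL and 5.81 to 6.29 without it. The overlap came from EV 72 h replicate 2, as the next library without RANKL, EV 72 h replicate 1, was at 6.01. As a share of the summed subunits of all 5 complexes, complex III held 13.9% in PBS 48 h, 11.8% in EV 72 h and 12.6% in EV+RANKL 72 h, and complex IV held 27.9%, 31.2% and 31.3%.

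Over the 8 groups, 62 of 89 members (69.7%) varied by limma's moderated F test with Benjamini-Hochberg adjustment over 10365 tested genes at a threshold of 0.05, where 63.0% of all tested genes did. By complex the counts were 31 of 43, 5 of 7, 7 of 8, 10 of 14 and 9 of 17 from I to V. The group of lowest mean was PBS 48 h for 57 of 89 members, and the group of highest mean was EV+RANKL 72 h for 47. These counts were not made over all tested genes, so they have no background beside them. The 10 members of smallest adjusted p were Cox6c, Sdha, Uqcrc2, Uqcrfs1, Atp5e, Ndufs5, Uqcrb, Atp5g2, Ndufs3 and Ndufv3. For 6 of these the lowest group was PBS 48 h and the highest EV+RANKL 72 h or EV 72 h, but Ndufs5 was lowest in EV+RANKL 72 h and Uqcrb lowest in EV 72 h. The map of members by library shows both patterns.

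**Figure D2:**
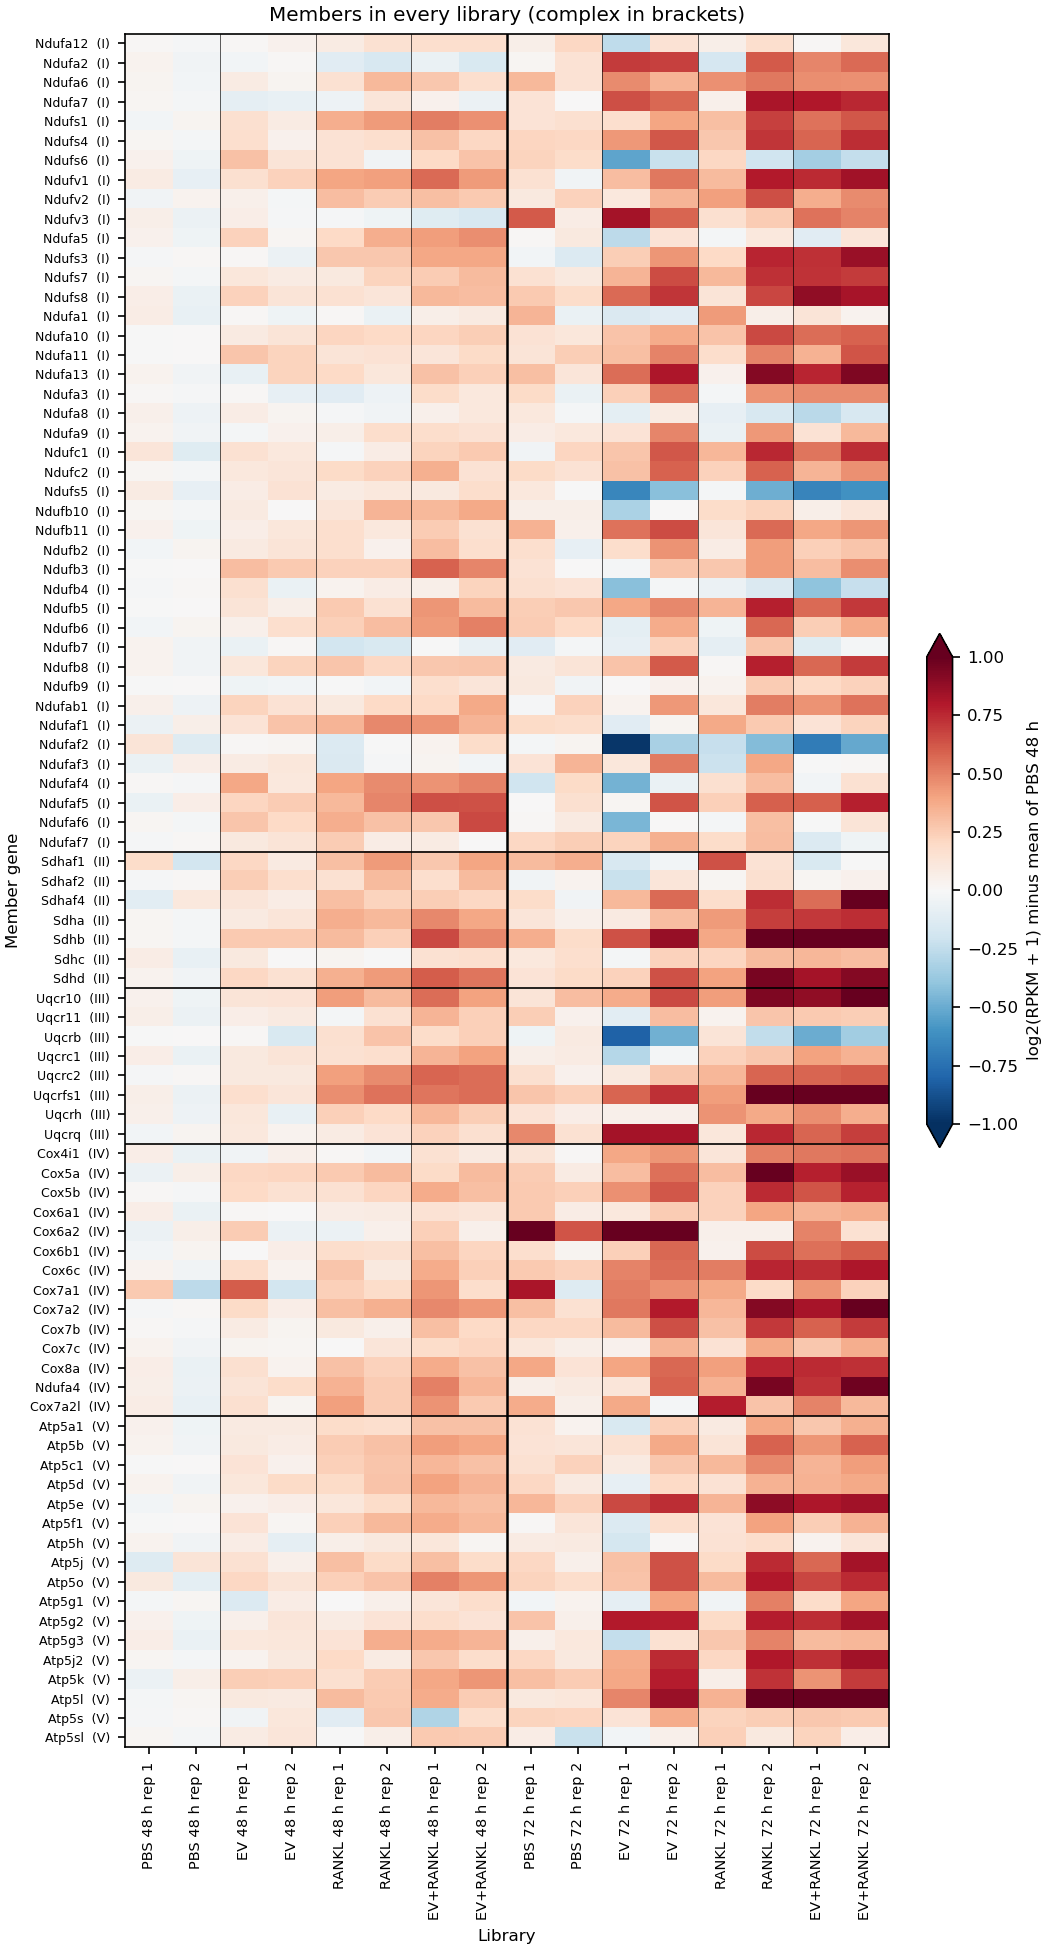
Each of the 88 rows is a member, ordered by complex (in brackets), and each column a library; the colour is log2(RPKM + 1) minus the mean of PBS 48 h, from -1 (blue) to 1 (red), with values outside that range shown at its ends. Most rows redden toward EV+RANKL 72 h, while Ndufs5, Ndufs6, Ndufaf2 and Uqcrb are blue in the EV 72 h and EV+RANKL 72 h libraries and in RANKL 72 h replicate 2.

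RANKL alone against PBS asks how the chain's genes stand when osteoclast formation is induced. At 48 h, 5 members rose and none fell by limma's test. They were the core protein Uqcrc2 and the Rieske iron-sulfur protein Uqcrfs1 of complex III, Sdha of complex II, and Ndufs1, a core subunit, and Ndufaf1, an assembly factor, of complex I. No member of complexes IV or V passed. Of all tested genes, 6.47% were called higher and 8.29% lower, 14.8% in either direction, so 5 of 89 is a smaller share than the background. Without adjustment 18 members had p under 0.05. On the log2(RPKM + 1) scale used for all changes, the members' median change was 0.19, against 0.06 over all tested genes, and 68 members were higher in both RANKL libraries than in both PBS libraries, where the background for that is 42.9%, and 4 were lower in both (background 25.4%).

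Uqcrc2 was at 66.8 and 67.8 RPKM in the PBS libraries and at 89.8 and 93.6 RPKM with RANKL. That is a log2 change of 0.44 ± 0.10 (SE; limma adjusted p = 0.00824). Uqcrfs1 went from 24.7 and 22.8 RPKM to 33.1 and 35.1 RPKM, a log2 change of 0.51 ± 0.15 (adjusted p = 0.0368). Both libraries of each group lay close together in these genes and the groups did not overlap. Sdha was at 54.9 and 53.2 RPKM with PBS and at 70.0 and 67.9 RPKM with RANKL, Ndufs1 at 11.2 and 11.7 against 15.05 and 15.7 RPKM, and Ndufaf1 at 10.04 and 10.95 against 13.5 and 15.02 RPKM. The count of 5 depended on each library: it was 0 without PBS 48 h replicate 1 or without RANKL 48 h replicate 2, 1 without PBS 48 h replicate 2 and 2 without RANKL 48 h replicate 1.

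At 72 h, 15 members (16.9%) rose with RANKL and none fell, where 18.9% of tested genes were called, 9.73% higher and 9.13% lower. They included Ndufv1, Ndufs3 and Ndufa10 of complex I, Sdha and Sdhd of complex II, Uqcrc2, Uqcrfs1, Uqcrh and Uqcr10 of complex III, Ndufa4 and Cox6c of complex IV and Atp5l of complex V. All 15 encode structural subunits; none of the 13 assembly or related members passed. The median change was 0.23 for the members and 0.00 for all tested genes, and of the 5 complexes it was largest for the 4 complex II subunits, at 0.46. Without RANKL 72 h replicate 2 these medians were 0.06 for the members and 0.18 for complex II, and without replicate 1 they were 0.40 and 0.70. Both RANKL libraries lay above both PBS libraries in 42 members (background 26.2%) and below them in 5 (background 27.8%). Sdha, Uqcrc2 and Uqcrfs1 were called at both times, 60% of the calls at 48 h and 20% of those at 72 h. The 2 comparisons use separate libraries, and shared calls were not counted over all tested genes.

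These 72 h values came with a wide spread. Sdha was at 58.9 and 56.2 RPKM with PBS and at 72.9 and 88.2 RPKM with RANKL, a log2 change of 0.47 ± 0.10 (SE; limma adjusted p = 0.00749). Ndufs3, a core subunit of the arm that hands electrons to ubiquinone, was at 10.5 and 9.69 against 12.5 and 18.9 RPKM, a change of 0.56 ± 0.14 (adjusted p = 0.0157). Cox6c, a small subunit of complex IV, was at 17.1 and 16.7 against 20.5 and 24.5 RPKM, a change of 0.39 ± 0.10 (adjusted p = 0.0192). In each of these genes both RANKL libraries exceeded both PBS libraries, with replicate 2 the higher. Atp5l, a membrane subunit of the ATP synthase, was at 131 and 133 RPKM with PBS and at 156 and 275 RPKM with RANKL.

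Complex II held subunits that passed and subunits that did not. Sdhd, a membrane anchor, was at 75.0 and 78.1 RPKM with PBS and at 90.5 and 132.9 RPKM with RANKL at 72 h, a log2 change of 0.51 ± 0.16 (SE; limma adjusted p = 0.0393). Sdhb, the iron-sulfur subunit, was at 33.4 and 29.3 against 33.9 and 54.6 RPKM and did not pass (0.45 ± 0.17, adjusted p = 0.0824). Sdhc, the other anchor, had changes of 0.01 at 48 h (adjusted p = 0.961) and 0.13 at 72 h (adjusted p = 0.362). The 2 anchors thus had different values although both belong to the same complex, and the difference between them was not tested.

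The count of 15 rested on RANKL 72 h replicate 2. Without it no member was called, and Sdha kept a log2 change of 0.34, Ndufs3 0.28 and Uqcrc2 0.23. Without RANKL 72 h replicate 1, 47 members were called, 45 of them higher. Leaving out a PBS 72 h library gave 5 higher (without replicate 1) or 2 lower (without replicate 2). The 2 RANKL libraries also differed in the ribosomal share, at 8.72% in replicate 1 and 10.4% in replicate 2, and the part of that difference in the result was not tested. In the plot of shifts by library, every group of subunits was higher in replicate 2 than in replicate 1. The test of the RANKL change at 72 h minus that at 48 h called no member, with none at an unadjusted p under 0.05 (0.0289% of tested genes called); without RANKL 72 h replicate 1 it called 6.

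**Figure D3:**
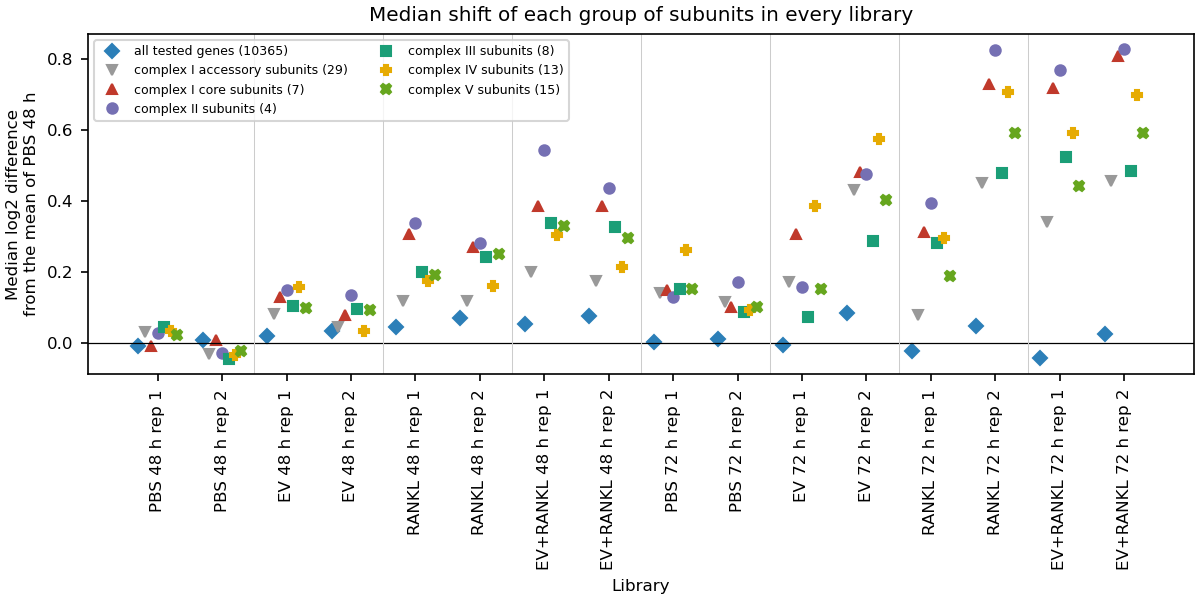
Median log2 difference from the mean of PBS 48 h (vertical axis) for each group of subunits and for all tested genes in every library (horizontal axis), with the number of genes in the key. All tested genes stay near 0 in each library, complex II and the complex I core subunits are the 2 highest sets in the 8 libraries with RANKL, and RANKL 72 h replicate 2 lies near the EV+RANKL 72 h libraries.

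Complex I has 7 nuclear core subunits (Ndufv1, Ndufs1 and Ndufs3 among them), which carry the flavin, the iron-sulfur clusters or the quinone site. Their median change was above that of the 29 accessory subunits in every comparison of groups. The gap was small in some, with 0.21 against 0.20 over time in RANKL and 0.12 against 0.10 for EV+RANKL against RANKL at 48 h. Single genes overlapped: with EV at 72 h changes ran from 0.06 to 0.43 in core and from -0.58 to 0.61 in accessory subunits. The split into core and accessory subunits was made after the values were seen, so it carries no test. With RANKL at 72 h, 5 of 7 core and 1 of 29 accessory subunits were called, with median changes of 0.40 and 0.15. Without RANKL 72 h replicate 2 none of either was called and the medians were 0.20 and -0.02, and without replicate 1 there were 7 of 7 core and 13 of 29 accessory calls, 2 of the latter lower, with medians of 0.60 and 0.35. At 48 h, 1 of 7 and 0 of 29 were called, with medians of 0.28 and 0.12. With EV at 72 h the medians were 0.36 and 0.18, with 0 of 7 core and 4 of 29 accessory subunits called, and they were 0.47 and 0.24 without EV 72 h replicate 1 and 0.23 and 0.11 without replicate 2. The median annotated transcript length was 1623 bases for the core and 875 bases for the accessory subunits, and its part in the difference was not tested.

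Other genes of the pathway were taken from lists outside the name rule, where the background over all tested genes was 6.47% higher and 8.29% lower at 48 h and 9.73% higher and 9.13% lower at 72 h. Of 18 genes of the TCA cycle and pyruvate entry, 7 rose and none fell with RANKL at 48 h, and 6 rose and none fell at 72 h. Pdhb, of the pyruvate dehydrogenase that feeds the cycle, rose by 0.49 ± 0.09 on the log2 scale at 48 h (limma adjusted p = 0.00231). Of 35 assembly factors tested, 5 rose at each time and none fell, among them Foxred1 of complex I assembly (0.48 at 48 h, 0.52 at 72 h) and Tmem70 of ATP synthase assembly (0.56 and 0.55). Of 12 regulators of mitochondrial biogenesis, 4 rose at 48 h: Myc (3.25), the coactivator Ppargc1b (0.37), and the mitochondrial transcription factors Tfam (0.33) and Tfb2m (0.32). At 72 h Myc and Tfb2m rose and Gabpb1 fell. Of the 13 subunits encoded by mitochondrial DNA, 0 were called at 48 h, with 2 at an unadjusted p under 0.05, and 8 rose at 72 h, with mt-Nd3 at 0.83 ± 0.15. Single libraries moved these counts. Without RANKL 72 h replicate 2, the 72 h calls were 3 of the TCA list, 0 of the assembly factors, 1 of the regulators and 5 of the mitochondrially encoded subunits, all higher. Without RANKL 72 h replicate 1 there were 10, 13, 4 and 7, with 1 lower in each of the last 3 lists. Leaving out PBS 72 h replicate 1 or replicate 2 gave 6 or 3 of the TCA list, 3 or 0 of the assembly factors, 1 or 2 of the regulators and 2 or 3 of the mitochondrially encoded subunits. At 48 h, leaving out 1 of the 4 libraries gave 1 to 4 of the TCA list, 0 to 1 of the assembly factors and 1 to 2 of the regulators.

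EV alone against PBS gave no call among the members at 48 h by limma, with 2 at an unadjusted p under 0.05 and 1.29% of tested genes called, 0.608% higher and 0.685% lower. The median change was 0.10 for the members and 0.03 for all tested genes, and 51 members were higher in both EV libraries than in both PBS libraries (background 32.0%) and 2 lower (background 20.6%). No left-out library changed the count of 0. At 72 h, 5 members rose and 4 fell, where 18.3% of tested genes were called, 10.4% higher and 7.83% lower. Without overlap, 44 members were higher (background 33.5%) and 13 lower (23.6%). The 5 were Atp5g2, which encodes the c-ring protein of ATP synthase, Atp5e of its F1 part, Uqcrq of complex III and Ndufa2 and Ndufa7 of the NADH-oxidising arm of complex I. The 4 were Uqcrb of complex III, Ndufs5 and Ndufs6 of complex I and the complex I assembly factor Ndufaf2.

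Atp5g2 was at 59.8 and 50.8 RPKM with PBS and at 85.5 and 85.2 RPKM with EV, a log2 change of 0.62 ± 0.15 (SE; limma adjusted p = 0.0182). Ndufa2 was at 22.4 and 24.6 RPKM against 36.5 and 36.0 RPKM, a change of 0.61 ± 0.17 (adjusted p = 0.0325). Uqcrb, by contrast, was at 162 and 177 RPKM with PBS and at 94.5 and 119 RPKM with EV, a change of -0.67 ± 0.14 (adjusted p = 0.0120). In all 3 genes the EV libraries lay outside the PBS range. Ndufs5 was at 79.1 and 73.1 against 46.4 and 54.8 RPKM, with a change of -0.58 ± 0.13 (adjusted p = 0.0162). Ndufs6 was at 100.2 and 97.8 against 59.3 and 73.5 RPKM, with a change of -0.58 ± 0.14 (adjusted p = 0.0175). Ndufaf2 was at 19.2 and 20.0 against 9.46 and 15.4 RPKM, so its EV libraries differed from each other by more than the PBS libraries did. In GENCODE M21, Ndufs6, Ndufaf2 and Uqcrb overlap a gene on the other strand and Ndufs5 overlaps none.

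Counts of calls for EV at 72 h moved with every library. Without EV 72 h replicate 1 or without PBS 72 h replicate 2 no member was called, without PBS 72 h replicate 1 there were 7 calls, 5 of them higher, and without EV 72 h replicate 2 there were 13, 3 higher and 10 lower. The median change of complex III, 0.02 over all libraries, was 0.16 without EV 72 h replicate 1, -0.03 without EV 72 h replicate 2, 0.10 without PBS 72 h replicate 1 and -0.03 without PBS 72 h replicate 2. The EV change at 72 h minus that at 48 h called no member in limma (0.0193% of tested genes), with 14 at an unadjusted p under 0.05; without EV 72 h replicate 2 it called 11, of which 10 were lower. Of the pathway lists, regulators of mitochondrial biogenesis had 4 lower of 12 at 72 h with EV (Ppargc1b, Pprc1, Gabpa and Gabpb1) and none higher. The TCA list had 1 lower of 18, Ogdh. Assembly factors had 2 higher and 2 lower of 35, and mitochondrially encoded subunits 2 higher of 13. None of these list genes was called without EV 72 h replicate 1 or without PBS 72 h replicate 2. Without PBS 72 h replicate 1 there were 1 lower regulator, 0 of the TCA list, 2 higher assembly factors and 1 higher mitochondrially encoded subunit. Without EV 72 h replicate 2 there were 4 lower regulators, 3 lower of the TCA list, 1 higher and 7 lower assembly factors and 5 higher mitochondrially encoded subunits.

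EV added to RANKL, against RANKL alone, called no member by limma at 48 h (0.434% of tested genes called, 0.270% higher and 0.164% lower) or at 72 h (1.83%, with 1.30% higher and 0.531% lower). At an unadjusted p under 0.05 there were 3 members at 48 h and 8 at 72 h. At 48 h the median change was 0.10 against 0.00 for all tested genes, and 50 members were higher in both EV+RANKL libraries (background 22.1%) and 1 lower (background 21.8%). At 72 h it was 0.10 against -0.02, with 12 members higher (background 20.8%) and 12 lower (27.6%) without overlap. The 72 h count again turned on RANKL 72 h replicate 2: without that library 33 members were called, 29 higher and 4 lower, and without any other single library the count stayed at 0.

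**Figure D4:**
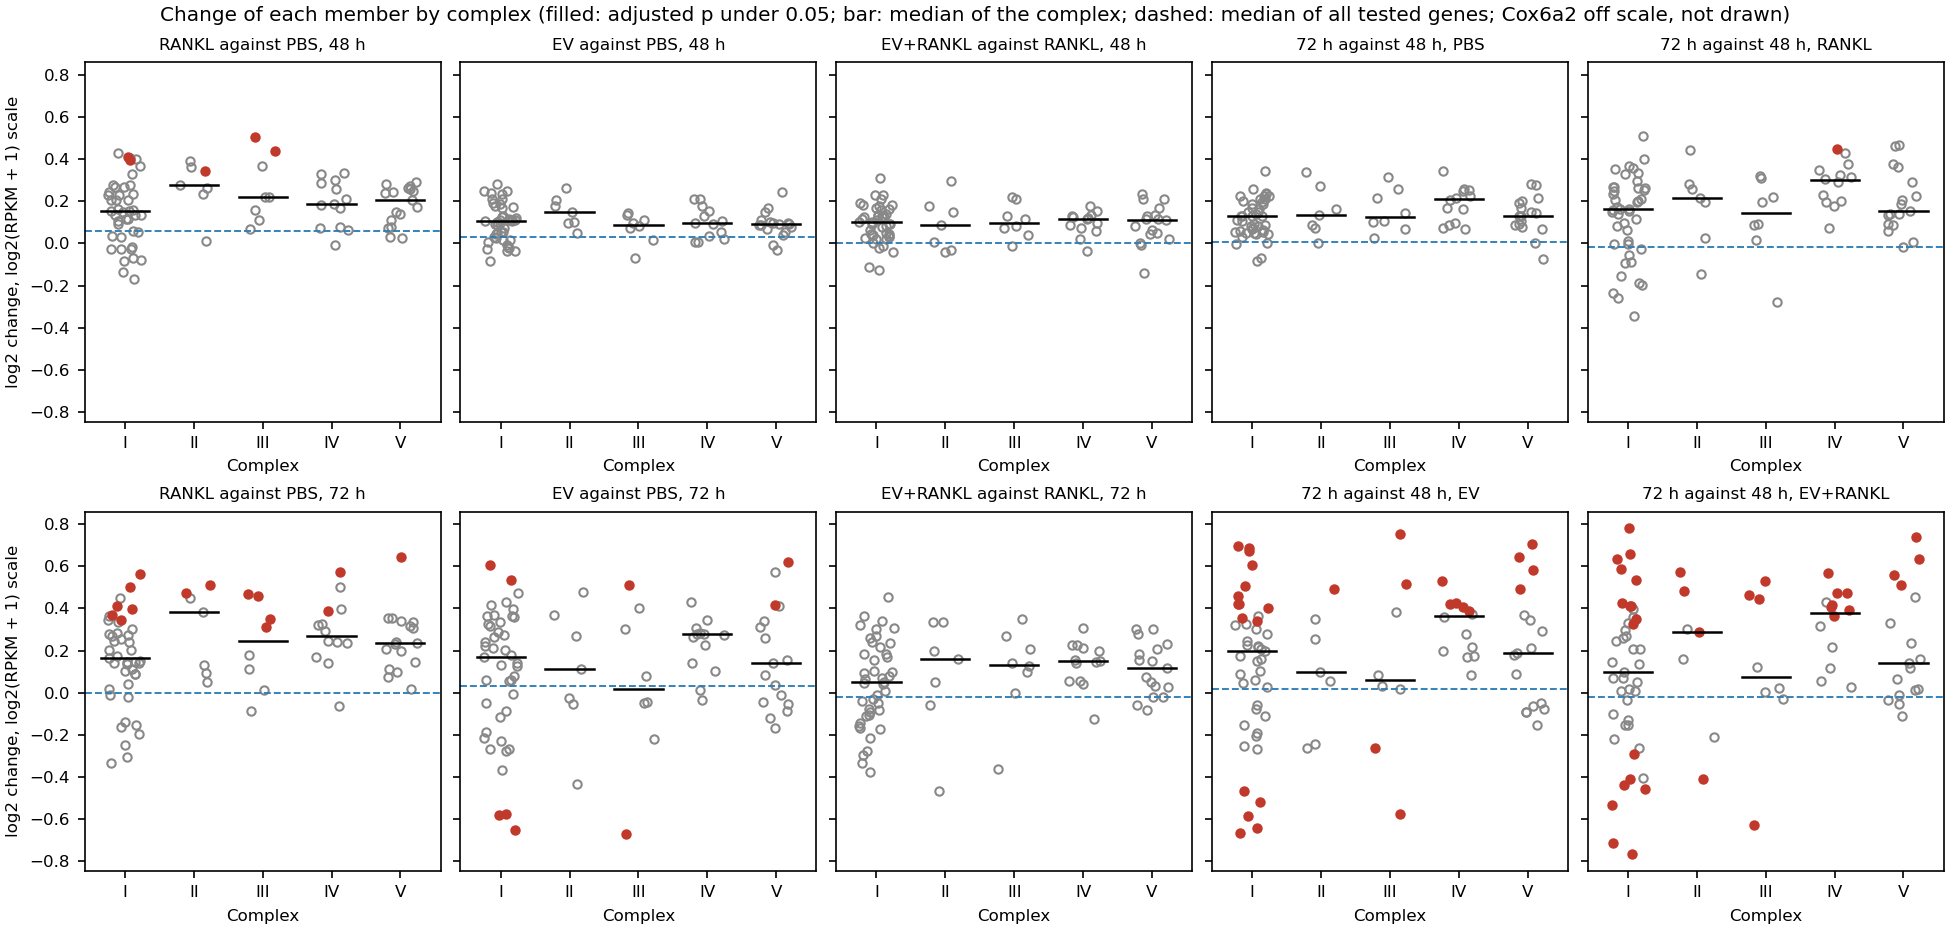
Log2 change of each member except Cox6a2, which is off the scale (vertical axis, log2(RPKM + 1) scale) by complex in 10 comparisons; filled points have a limma adjusted p under 0.05, bars are the median of the complex and the dashed line the median of all tested genes. Complex medians lie above the dashed line in all comparisons but EV against PBS at 72 h, where complex III is at 0.02 against 0.03, and filled points below 0 appear with EV at 72 h and in the change over time with EV or EV+RANKL.

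Time was compared within each treatment. In PBS no member was called between 48 h and 72 h by limma, with 6 at an unadjusted p under 0.05. Of tested genes, 0.646% were called (0.145% higher and 0.502% lower). Changes were above 0 in 84 of 89 members and in 5375 of 10365 tested genes, with medians of 0.13 and 0.01. Without overlap 57 members were higher (background 25.2%) and 1 lower (22.1%). Without PBS 72 h replicate 2, 2 members were called, both higher. In RANKL 1 member was called, Cox6c, which rose by 0.45 ± 0.10 on the log2 scale (adjusted p = 0.0322; 6.03% of tested genes called, 3.45% higher and 2.58% lower). Without overlap 37 members were higher (background 24.7%) and 7 lower (31.4%). Without RANKL 72 h replicate 1 the count was 39, 37 of them higher, and without any of the other 3 libraries it was 0.

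In EV, 24 members were higher and 7 lower at 72 h than at 48 h, and in EV+RANKL 27 were higher and 9 lower. These calls were 34.8% and 40.4% of the members. Of tested genes, 32.3% and 38.9% were called, with 17.4% higher in each and 14.9% and 21.5% lower. Higher calls were thus a larger share of the members than of tested genes, and lower calls a smaller share. In EV, 53 members were higher (background 37.4%) and 13 lower (31.1%) without overlap, and in EV+RANKL 53 (35.9%) and 19 (40.3%). Complex IV had 6 of 13 subunits higher in EV and 7 of 13 in EV+RANKL and none lower, with median changes of 0.37 and 0.39. The 6 in EV include Cox6a2, which passed the level filter only through libraries at 72 h, both of EV among them. Complex I had 11 higher and 2 lower of 36 in EV, and 10 higher and 5 lower in EV+RANKL. Complex III had 2 and 2 of 8 in EV, then 3 and 1, complex V 4 and 0 of 15 in each, and complex II 1 and 0 of 4, then 2 and 0. The 13 assembly or related members had 0 higher and 3 lower in EV and 1 higher and 3 lower in EV+RANKL. Of the higher calls 19 were shared, 79.2% of those in EV and 70.4% of those in EV+RANKL, and of the lower calls 5 were shared (71.4% and 55.6%): Ndufs5, Ndufs6, Uqcrb, Ndufaf2 and Ndufaf4. Shared calls were not counted over all tested genes, so these shares have no background beside them. The 2 comparisons share no library. Over all tested genes, however, the differences between replicates 1 and 2 of EV 72 h and of EV+RANKL 72 h had a correlation of 0.529. Of the 12 regulators of mitochondrial biogenesis, 5 were lower over time in EV and 7 in EV+RANKL, where 14.9% and 21.5% of all tested genes were lower, and none was higher. Leaving out 1 library gave 1 (without EV 72 h replicate 1) to 5 lower in EV and 4 (without EV+RANKL 48 h replicate 2 or 72 h replicate 1) to 6 in EV+RANKL.

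Ndufs5, an accessory subunit of complex I, had the smallest adjusted p of the lower members. In EV+RANKL it was at 78.5 and 83.0 RPKM at 48 h and at 46.0 and 48.0 RPKM at 72 h, a log2 change of -0.77 ± 0.13 (SE; limma adjusted p = 0.00179). In EV it was at 77.5 and 81.1 RPKM and then at 46.4 and 54.8 RPKM, a change of -0.64 ± 0.13 (adjusted p = 0.00601). The 72 h libraries of both treatments lay below every 48 h library. Ndufs5 was at 79.1 and 73.1 RPKM in PBS 72 h, and at 72.4 and 52.0 RPKM in RANKL 72 h. Uqcrb fell by 0.63 ± 0.14 in EV+RANKL, from 189 and 197 RPKM to 118 and 131 RPKM, and by 0.58 ± 0.14 in EV.

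Among the higher members, Ndufa7 rose from 8.29 and 7.62 RPKM to 14.7 and 14.1 RPKM in EV+RANKL, a log2 change of 0.78 ± 0.17 (SE; limma adjusted p = 0.00496). Ndufv3, an accessory subunit of the NADH-oxidising arm, rose from 12.8 and 12.4 to 20.8 and 20.1 RPKM, a change of 0.66 ± 0.14 (adjusted p = 0.00426). Atp5g2 rose from 55.4 and 53.8 to 82.2 and 88.4 RPKM, a change of 0.63 ± 0.15 (adjusted p = 0.00669), and in EV from 50.7 and 53.4 to 85.5 and 85.2 RPKM. In these genes too the 72 h libraries lay outside the 48 h range. In EV, Ndufv3 rose from 14.7 and 13.9 to 25.6 and 21.4 RPKM, and it was at 22.0 and 14.8 RPKM in PBS 72 h, so that the PBS replicates differed more than most. Cox6c rose from 18.5 and 16.8 to 24.2 and 25.5 RPKM in EV+RANKL.

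**Figure D5:**
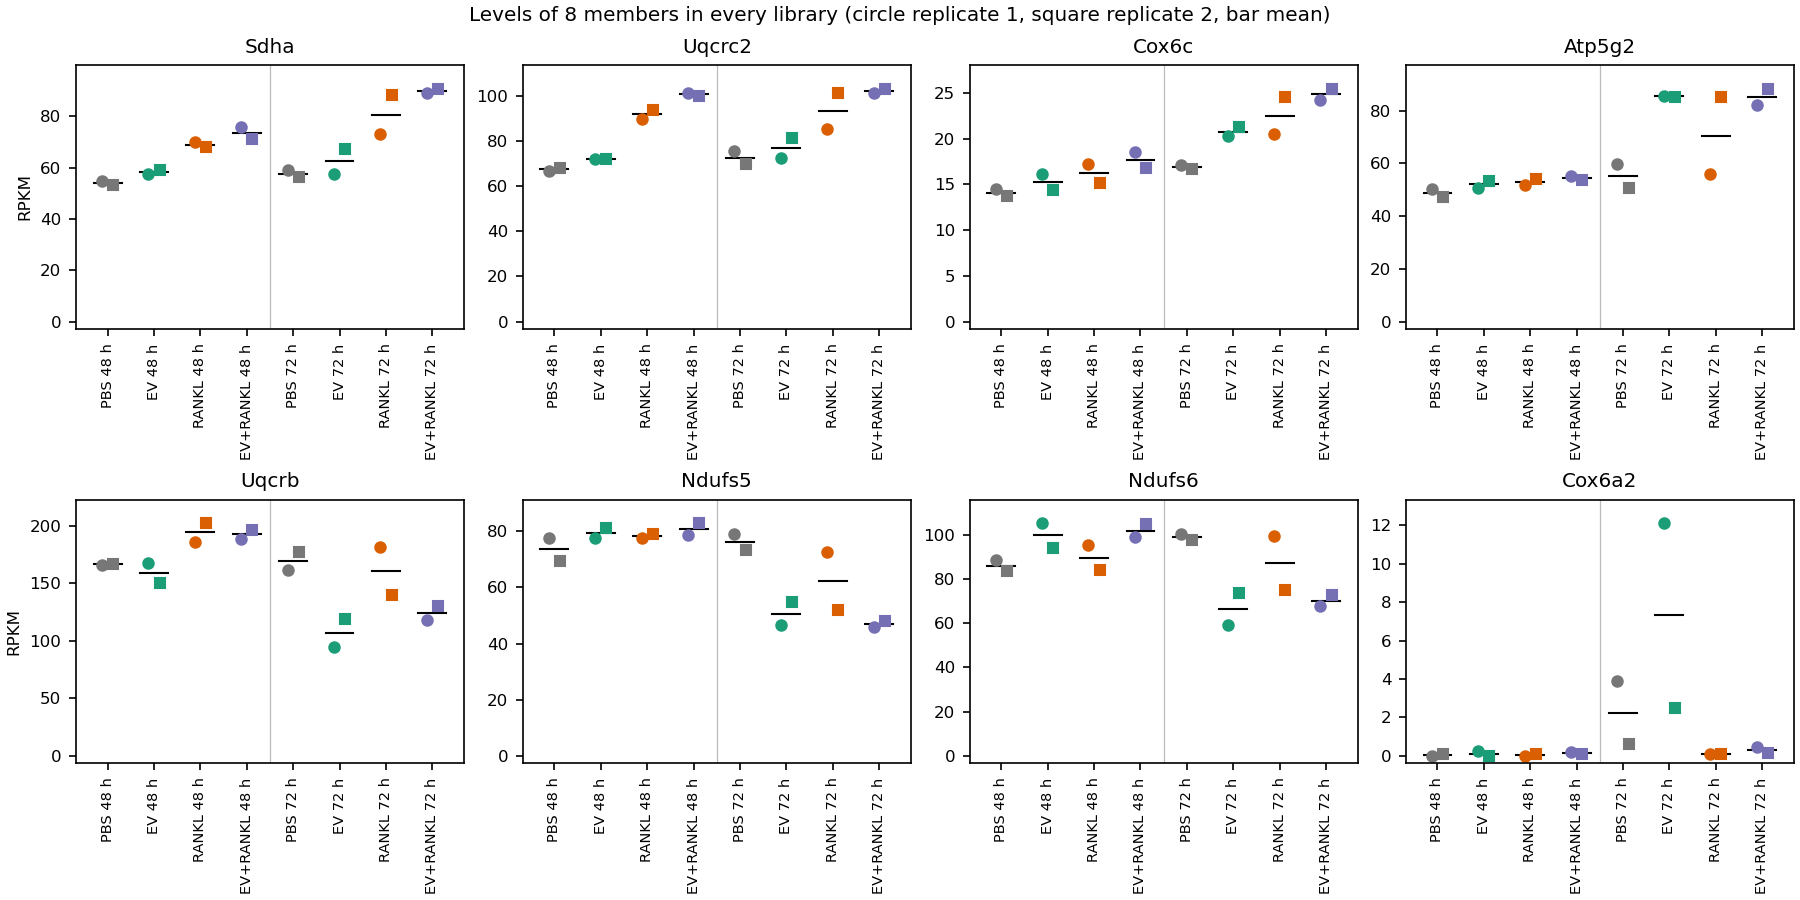
RPKM (vertical axes, from 0) of 8 members in the 16 libraries; circles are replicate 1, squares replicate 2 and bars the mean of 2. Sdha and Uqcrc2 are higher in all RANKL libraries than in PBS at the same time, Uqcrb, Ndufs5 and Ndufs6 are low in the EV 72 h and EV+RANKL 72 h libraries and in RANKL 72 h replicate 2, and Cox6a2 is above 1 RPKM in 3 libraries only.

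Single libraries moved these counts as well, in both treatments. In EV the number of calls was 7 or 9 without a 48 h library (replicate 1 or 2), 6, all higher, without EV 72 h replicate 1, and 26, 11 higher and 15 lower, without EV 72 h replicate 2. In EV+RANKL it was 16 or 5 without a 48 h library (replicate 1 or 2) and 7 or 13 without a 72 h library (replicate 1 or 2). The changes of Atp5g2 and Atp5e in EV, and of Ndufs5, Ndufa7 and Ndufv3 in EV+RANKL, kept their call under each of the alternatives run for them. The 5 libraries of high ribosomal share are the EV and EV+RANKL libraries at 72 h and RANKL 72 h replicate 2, and the part of that share in these results was not tested. Ndufs5 was at 46.0 to 54.8 RPKM in those 5 libraries and at 69.5 to 83.0 RPKM in the other 11, and Atp5g2 at 82.2 to 88.4 against 47.4 to 59.8 RPKM.

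Set beside the promoter windows shown above, NRF1 letters were present in 4 of 5 lower and 2 of 19 higher members with a window in EV over time, and in 6 of 8 lower and 4 of 23 higher members in EV+RANKL. Uqcrb has no window in the table. With RANKL at 72 h they were in 3 of 12 higher members. These counts are few, they overlap in their genes, and no test was made on them.

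Several subunits have forms encoded by separate genes. Cox6a1 was at 172 to 237 RPKM in all libraries, while Cox6a2 was at 12.1 and 2.49 RPKM in EV 72 h and at 3.89 and 0.612 RPKM in PBS 72 h, and between 0 and 0.464 RPKM in the other 12 libraries. Its share of the 2 forms reached 5.87% in EV 72 h replicate 1. Cox6a2 passed the level filter through 3 libraries only, both of EV 72 h and PBS 72 h replicate 1. Its change over time in EV was 2.60 ± 0.52 on the log2 scale, and 1.65 without EV 72 h replicate 1. Because the gene was tested only through libraries at 72 h, mainly those of EV, its call over time in EV is no independent support for a rise. Cox6a2 overlaps Itgad on the other strand in GENCODE M21, and no source used here gives the strand setting of the counting, so reads of the 2 genes cannot be told apart. Cox7a1, the muscle form of subunit 7a, held a mean of 4.83% to 7.90% of the summed Cox7a1 and Cox7a2 level, with no call in any comparison. Cox4i2, Cox6b2 and Ndufa4l2, the alternative forms of Cox4i1, Cox6b1 and Ndufa4, stayed at or under 0.598 RPKM.

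Atp5g1, Atp5g2 and Atp5g3 encode the same mature c-ring protein with different import sequences. Atp5g2 held 46.6% of their summed RPKM in PBS 48 h (46.6% and 46.7% in the replicates) and 43.9% to 48.6% in the other 48 h groups and in PBS 72 h. In EV 72 h it held 63.8% and 56.6%, and in EV+RANKL 72 h 54.5% and 55.2%. The RANKL 72 h replicates were at 46.3% and 51.6%. The share of Atp5g3 was 41.0% in PBS 48 h, 29.5% in EV 72 h and 34.8% in EV+RANKL 72 h. That of Atp5g1 stayed between 10.3% and 12.4% in the group means. The shares are parts of the same sum, so a higher share of Atp5g2 lowers the others. In RPKM, Atp5g3 was at 45.0 and 41.1 in PBS 48 h, 36.3 and 48.0 in EV 72 h and 53.8 and 54.4 in EV+RANKL 72 h.

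Some properties of the genes bear on how these values can be read. Of 88 members found in GENCODE M21, 39 overlap another gene, 34 of them a gene on the other strand. Pseudogenes carry the names of 5 members (Ndufab1, Uqcrh, Atp5c1, Atp5k and Atp5l), so reads could be split between copies and their values are uncertain. Pseudogenes under other names were not searched for, so other members may be affected too. Members' transcripts are short, with a median annotated length of 963 bases against 3088 bases over tested genes. Their median GC content was 50.2%, against 49.9%.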

How the data were processed

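RNA sequencing of total RNA from RAW264.7 cell pellets used TruSeq mRNA libraries, per the labels' protocols. Per the submitters' processing notes, the tools were FastQC, HISAT2 and Partek; GRCh38 and hg38, both human builds, are listed there although the symbols are those of mouse; mouse build, annotation and strand setting: not given in the sources used here. The deposited values are not whole numbers and were taken as log2(RPKM + 1). Base 2 was found from the values: 92.8% of 17914 low values of 3040 genes lay within 0.05 of a whole multiple of 1 read, against 88.1% with base e and 76.2% with base 10. A fold change on this scale understates that of low genes. The precision set by depth stands with the library description in the report. The column of 1 library of EV+RANKL at 48 h lacks the letter for RANKL; it was matched to its group only and is called replicate 2.

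All 16 libraries entered 1 fit of 8 group means in limma 3.58.1 (R 4.3.3; trend on expression) over the 10365 genes that reached 1 RPKM in 2 or more libraries, with Benjamini-Hochberg adjustment at 0.05, for 10 comparisons of groups, 2 differences of differences and 1 F test. The fitting code was tested on simulated data. Alternatives were no filter, a filter at 5 RPKM, an added 0.1 RPKM in place of 1, 2 other scalings, the replicate number as a block, only the groups compared, and each library left out.

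The members and lists were chosen with earlier results of these data known. Named were, in each comparison, the 4 members of smallest adjusted p in each direction, the 10 of smallest F test p, the highest and lowest member of each complex, and a set of isoforms and core subunits; others named in the text come from counts given in full. Assembly factors listed by name that match the member rule (Sdhaf1, Sdhaf2 and Sdhaf4) were counted as members only. Values of 1 member are not reported here singly, and it has no row in the map of members. Promoter windows and transcript features came from RefSeq (GRCm38.p6) and GENCODE M21.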

Additional observations from a re-analysis of the deposited data

How the results depend on the processing

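Of 33 changes of named members, recomputed under 362 alternatives in all, 273 kept their call, 89 lost it and none reversed. The 24 medians over the members recomputed under other scalings moved by less than the spread between replicates. The replicates of RANKL 72 h differed by a median of 0.35, beside a median change of 0.23 for RANKL at 72 h. The check could therefore pass a move that is large beside the medians. Leaving out libraries for the pathway lists and the medians was added after the data were seen, and its values stand in the report. Counts of members called moved by over 1.5 times in these cases. With no filter on low values they were 2 for RANKL at 48 h, 6 for RANKL at 72 h, 3 for EV at 72 h, and 15, 0 and 20 over time in EV, RANKL and EV+RANKL. With the filter at 5 RPKM, and with rescaling that leaves out mitochondrially encoded genes, RANKL over time had 2 calls, and the rescaling gave 10 for RANKL at 48 h. Centring on the median gave 1 for EV+RANKL against RANKL at 72 h and 4 for RANKL over time. Fits on only the 2 groups compared gave 31 and 0 for RANKL at 48 h and 72 h, 1 and 0 for EV at 48 h and 72 h, 10 for EV over time and 0 for RANKL over time. Replicates with the same number deviated together in many pairs of groups but not in all. Of 28 pairs, 17 had a correlation over 0.1 and 1 had a correlation below -0.1. The median was 0.151 and the range -0.115 to 0.529. The main fit did not include the replicate number. With the replicate number as a block, counts were 10 for RANKL at 48 h, 16 for EV at 72 h and 4 for RANKL over time. Leaving out 1 library at a time gave 0 to 2 for RANKL at 48 h, 0 to 47 at 72 h, 0 to 0 and 0 to 13 for EV, 0 to 0 and 0 to 33 for EV+RANKL against RANKL, 0 to 2, 6 to 26, 0 to 39 and 5 to 16 over time in PBS, EV, RANKL and EV+RANKL, 0 to 6 and 0 to 11 for the RANKL and EV differences between times, and 48 to 69 for the F test. These fits use fewer libraries, other genes or another scale, and the cause of each move was not tested. With 2 libraries in each group, the spread of 1 group rests on 1 difference, which limits what could be called.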

Other observations

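In RANKL 72 h, 75 of 89 members were higher in replicate 2 than in replicate 1, and some examples follow. In Ndufa7, Ndufa2 and Ndufs6 the replicates lay apart, with replicate 2 nearer to the EV and EV+RANKL libraries at 72 h. The same held for other members, among them Atp5g2 (55.9 and 85.1 RPKM) and Ndufs5 (72.4 and 52.0 RPKM). In Ndufv3 the replicates did not lie apart. Ndufa7 was at 8.32 RPKM in replicate 1 and 14.9 RPKM in replicate 2, beside 12.4 to 14.7 RPKM in the EV and EV+RANKL libraries at 72 h. Ndufa2 was at 19.6 and 34.3 RPKM, beside 31.3 to 36.5 RPKM. Ndufs6 was at 99.3 and 74.8 RPKM, beside 59.3 to 73.5 RPKM. Ndufv3 was at 15.8 and 16.9 RPKM, beside 20.1 to 25.6 RPKM. The summed osteoclast markers were at 452 and 827 RPKM in the 2 libraries, beside 1085 and 1585 RPKM in EV+RANKL 72 h. These genes were chosen after their values were seen.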
